A study of Mus musculus with 221 samples.

Results

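The transition from hemogenic endothelium (HE) to progenitors in the yolk sac (YS) plexus was followed here between the HE cluster b3 and the early YS progenitor cluster p2, which the sample labels call skewed toward erythro-myeloid progenitors (EMP). Each sample was 1 cell, and cells were assigned to b3 or p2 by their label and kept if their library held at least 17595 estimated counts. Of 48 cells carrying either label among the 221 cells of the series, 44 passed, 24 of b3 and 20 of p2. All came from mouse embryos of the GFI1 (GFP) and RUNX1B (RFP) reporter cross on a mixed C57BL/6JOlaHsd and CD-1 background, staged E9.0, E9.5 or E10.5, and had been sorted as RUNX1+ KIT+ CD31+ cells, with or without GFI1, lacking CD41 and CD45. The 24 b3 cells comprised 6, 11 and 7 cells of these stages, and the 20 p2 cells 5, 9 and 6. The populations differed in the reporter used for sorting: 10 b3 cells and 2 p2 cells were labelled Gfi1, and 14 and 18 were labelled Runx1. Both clusters were defined by the study on short-read gene expression of the same amplified cDNA, so gene levels below describe the clusters and do not test them, whereas isoform fractions were not used to define the clusters. Embryos of origin are not named in the labels, so each population counted as 1 sample, no p-value was computed, and all intervals cover counting error only.

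HE is an endothelium from which blood cells bud in a process called the endothelial-to-hematopoietic transition (EHT). Cells in transit lose junctional and vessel-wall genes, round up and gain genes of the blood lineage, under the control of transcription factors such as RUNX1, GFI1 and GFI1B. In the YS the plexus vessels, marked by the hyaluronan receptor LYVE1, produce EMPs, which supply the embryo with erythroid, megakaryocytic, mast and myeloid cells before hematopoietic stem cells take over.

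The libraries were nanopore reads of full-length cDNA, sequenced in 3 runs that held different cells of both populations. Totals ranged from 18131 to 84052 estimated counts in b3 (median 31776) and from 19575 to 57272 in p2 (median 36709.5), and the cells just below the limit held 17182 counts in b3 and 16773 in p2. A b3 cell held between 2247 and 5459 genes with at least 1 count (median 3722.5) and a p2 cell between 2509 and 4941 (median 4177). With every cell thinned to 18015 counts the medians were 3528.5 and 3646.5 genes, with ranges of 2975 to 3996 and 3185 to 4107. No pair of cells shared a run and barcode or had identical values. Run 3 held no p2 cell of E10.5.

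Over the 4113 genes with at least 50 counts in both populations together, 142 (3.45%) were higher in p2 and 217 (5.28%) were lower, 8.73% of genes in all, with at least a 2-fold difference in CPM (counts scaled to a common library total) over all cells and the same direction in each of the 3 runs. With each cell thinned to the same total, 68 genes were called higher and 94 lower among the 2678 that still had enough counts, and with a limit of 200 counts 19 and 35 among 1583. The median log2 ratio of p2 over b3 was 0.052. Without the requirement on runs, 197 genes were at least 2-fold higher and 281 at least 2-fold lower. In single runs, p2 and b3 differed at least 2-fold in 10.34%, 13.53% and 12.89% of genes, while pairs of runs of b3 cells alone differed that far in 10.79% to 12.53% and pairs of runs of p2 cells in 6.84% to 8.46%. The share in run 1 was below that between any pair of runs of b3 cells and the shares in runs 2 and 3 were slightly above it, so a 2-fold difference in 1 run was not used alone, and genes were called by their direction in all 3 runs. None of the 187 genes named Rpl or Rps and none of the 22 mitochondrial genes was called in either direction.

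**Figure D1:**
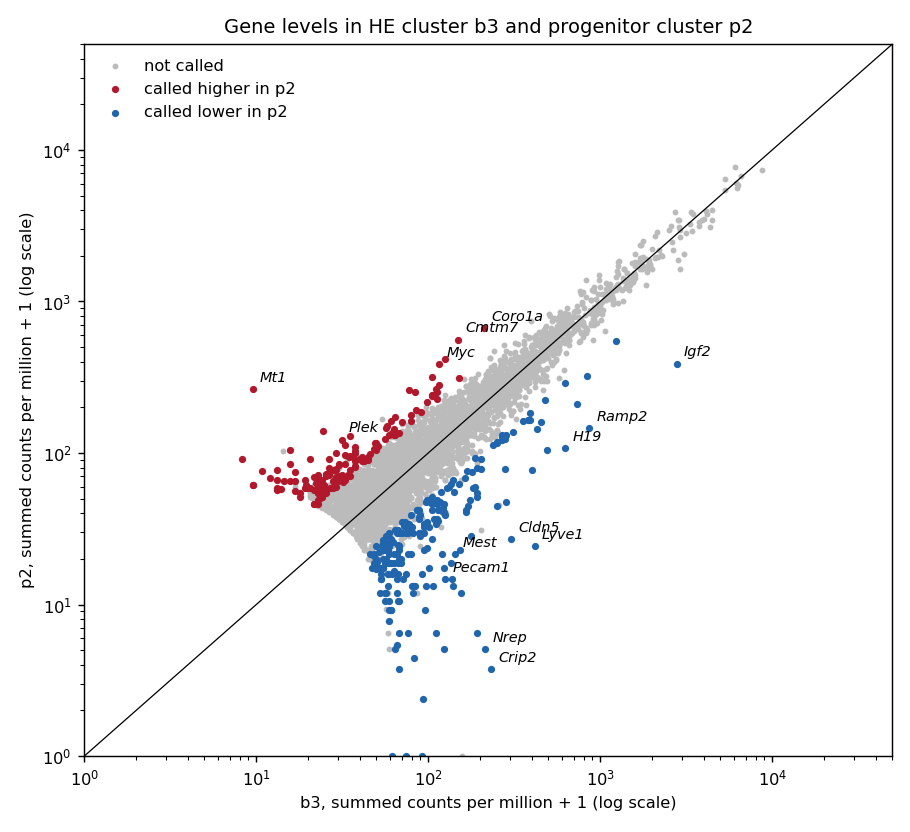
Summed CPM in b3 (x axis) and p2 (y axis) of each gene with at least 50 counts over both, with 1 added and both axes on a log scale. Red points are the 142 genes called higher in p2 and blue points the 217 called lower. Igf2, Lyve1 and Crip2 lie far below the diagonal and Mt1 far above it.

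Endothelial genes were lower in p2 as a group. Of 33 endothelial markers, 19 had enough counts, all 19 had a log2 ratio below 0, and 14 were called lower, against 5.28% of all genes. Their median log2 ratio was -1.91, and it was -2.08, -1.69 and -1.92 in the 3 runs, and -0.83 over the 7 members with at least 200 counts. The markers without enough counts, among them Kdr, Flt1 and Nrp1, are not ranked here. The limit was on the summed counts of both populations, so a member such as Pecam1 (102 counts in b3 and 10 in p2) passed through b3 alone. Kdr, with 12 counts in b3 and 10 in p2, did not pass. The number of members below 0, the share called and the median therefore rest partly on this limit. Summed over the 33 genes, b3 cells held between 1529 and 6936 CPM (median 3735) and p2 cells between 262 and 4044 CPM (median 1115). The ranges overlapped, but 9 of 24 b3 cells lay above the highest p2 cell and 15 of 20 p2 cells below the lowest b3 cell. For reference, the median was 10587 CPM in the earlier plexus HE cluster b2 and 1874 CPM in the other progenitor cluster p1. The highest p2 cell was an E9.0 cell of run 2 and the next highest held 2745 CPM. Without the highest cell the median log2 ratio of the list was -2.03.

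The difference in endothelial genes was larger at the latest stage. At E9.0 the summed level had a median of 2403 CPM in b3 and 1494 CPM in p2, at E9.5 of 3891 and 1113 CPM, and at E10.5 of 4694 and 579.7 CPM. Every p2 cell of E10.5, from 262 to 1439 CPM, lay below every b3 cell of E10.5, from 1529 to 6936 CPM, whereas the cells of E9.0 overlapped. The median log2 ratio of the list was -1.25 with cells of E9.0 and E9.5 alone and -3.18 with cells of E10.5 alone, the latter without any p2 cell of run 3. The plate that held the most cells (10 of b3 and 13 of p2) had no cell of E10.5, so plate and stage cannot be fully told apart here. Within that plate the median log2 ratio was -1.40. Among Runx1-sorted cells alone the median log2 ratio was -1.83. The count limit was applied anew to each set of cells, so the medians of these sets can cover different genes of the list.

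**Figure D2:**
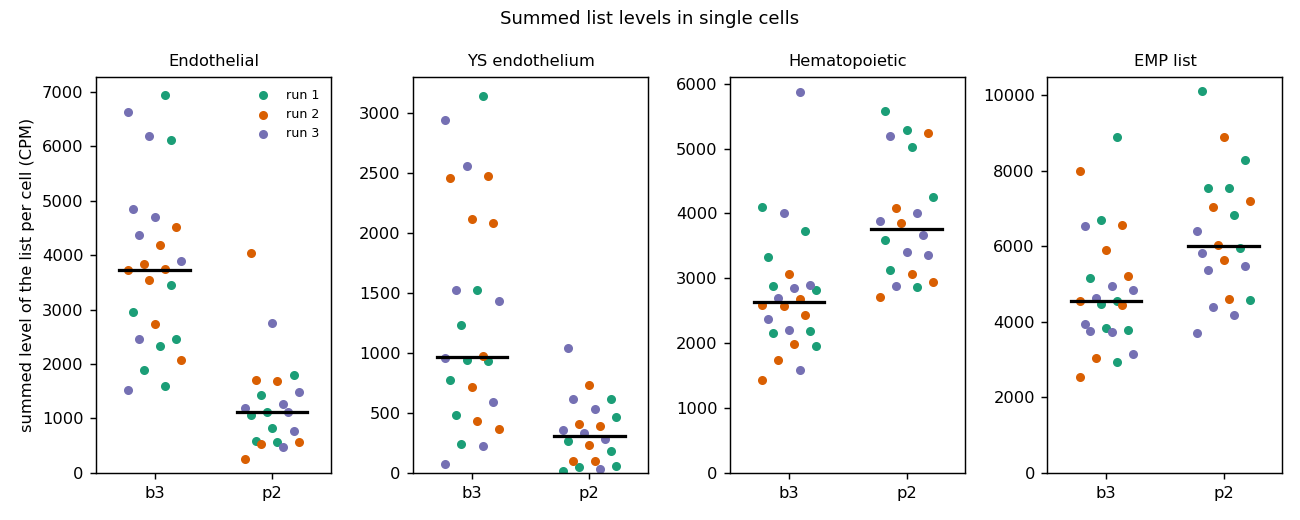
Summed level of 4 gene lists in each cell, in CPM, for b3 and p2, with points coloured by nanopore run and black bars at the medians. Endothelial sums have medians of 3735 CPM in b3 and 1115 CPM in p2, and hematopoietic sums of 2636 and 3760 CPM, with overlapping cells in every panel.

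The next genes of the endothelial list encode proteins of cell junctions and adhesion. Cldn5, the tight-junction claudin of endothelium, ranged from 0 to 725.7 CPM over b3 cells (median 160.2) and from 0 to 611.4 CPM over p2 cells (median 0), with at least 1 count in 18 of 24 b3 cells and 2 of 20 p2 cells. Over summed counts it stood at 302.1 CPM in b3 (95% Poisson interval 265.7 to 342.1) and 25.9 CPM in p2 (15.6 to 40.5), a log2 ratio of -3.51. Most of its 19 counts in p2 belonged to 1 cell, without which the log2 ratio was -5.05. Cdh5, which encodes VE-cadherin, had 90 counts in 12 b3 cells and 4 counts in 3 p2 cells, a log2 ratio of -4.16. Pecam1, which encodes the sorting antigen CD31, had 102 counts in 17 b3 cells and 10 counts in 3 p2 cells, a log2 ratio of -3.12, although all cells had been sorted as CD31+. Icam2, an adhesion molecule of endothelium and platelets, stood at 175.4 and 27.3 CPM, a log2 ratio of -2.65. Esam, another junctional adhesion molecule, was not called, with 367.9 CPM in b3 and 206.2 CPM in p2.

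Other genes of the list encode surface molecules, receptors and transcription factors. Emcn, the sialomucin endomucin, had 75 counts in 8 b3 cells, of which 37.3% came from 1 cell, and 0 counts in p2. Against a floor of 3 counts over all p2 cells, which stands for 4.1 CPM, it was at least 22.3-fold lower in p2. Procr, the endothelial protein C receptor, ranged from 0 to 992.8 CPM over b3 cells (median 132.3) and from 0 to 96.4 CPM over p2 cells (median 0). Its summed level was 191.3 CPM (162.5 to 223.6) in b3 and 5.46 CPM (1.49 to 13.98) in p2, a log2 ratio of -4.96. Calcrl, the receptor that pairs with RAMP proteins to bind adrenomedullin, stood at 75.5 and 5.46 CPM, and Ecscr, a surface regulator of endothelial migration, at 154.7 and 10.9 CPM. The angiopoietin receptor gene Tek, the TGF-beta coreceptor gene Eng and the diaphragm protein gene Plvap had log2 ratios of -1.56, -1.59 and -1.91. The related receptor gene Tie1 was not called and stood at 143.7 CPM in b3 and 118.8 CPM in p2. Of the endothelial transcription factors, Sox18 and Erg were called lower, with log2 ratios of -1.26 and -1.36. Erg rested on 47 and 16 counts, and without its highest b3 cell its log2 ratio was -0.92, short of 2-fold.

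Genes that mark YS vessels were lower in p2, though few could be counted. Of 30 such genes, 6 had enough counts and 5 were called lower, against 5.28% of all genes, with a median log2 ratio of -2.97, or -2.86 with Gimap4 set at its bound. The limit was on the summed counts of both populations, and Lyve1, Fcgrt and Gimap4 passed it through b3 alone. The share called and the median therefore rest partly on this limit. Lyve1 ranged from 0 to 1579 CPM over b3 cells (median 245.5) and from 0 to 147.2 CPM over p2 cells (median 0), and had at least 1 count in 19 of 24 and 5 of 20 cells. Over summed counts it stood at 414.2 CPM (371.3 to 460.6) in b3 and 23.2 CPM (13.5 to 37.2) in p2, a log2 ratio of -4.12, and it was 910.7 CPM in b2 and 18.3 CPM in p1. Within runs its log2 ratio was -3.55, -4.34 and -4.34. Fcgrt, the neonatal Fc receptor that recycles immunoglobulin and albumin, had 101 counts in 7 b3 cells and 3 counts in p2. Gimap4, a GTPase of the immune-associated family, had 50 counts in 10 b3 cells and 0 in p2 and was at least 14.9-fold lower. Npl, an enzyme of sialic acid breakdown, and Selenop, the plasma selenium carrier, had log2 ratios of -1.83 and -1.64. Tcn2, the vitamin B12 carrier, was not called, with 145 CPM in b3 and 132.4 CPM in p2. No gene of the arterial list (20 genes) or the venous list (4 genes) had enough counts, and of 18 Notch pathway genes only the fringe enzyme gene Mfng did, at 103.5 CPM in b3 and 99.7 CPM in p2.

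Of 17 genes of basement membrane and matrix, 4 had enough counts and 2, Sparc and Col18a1, were called lower, against 5.28% of all genes. Sparc, a collagen-binding matricellular protein, stood at 730.9 CPM in b3 and 208.9 CPM in p2, a log2 ratio of -1.803, and had counts in all 24 b3 cells and 17 of 20 p2 cells. Col18a1, the collagen that yields endostatin, stood at 389.8 and 165.2 CPM. Fn1 and Emilin1 were not called.

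The imprinted genes Igf2 and H19 were both lower in p2. Igf2 encodes the fetal insulin-like growth factor. Igf2 reached 11396 CPM in the highest b3 cell (median 1681) and 1571 CPM in the highest p2 cell (median 226). It was counted in all 24 b3 cells and in 18 of 20 p2 cells, so the populations overlapped. Summed over cells, Igf2 stood at 2787 CPM in b3 (2674 to 2904) and 387.4 CPM in p2 (344 to 435.6), a log2 ratio of -2.84. Of Igf2 counts, 66.3% were in estimates that were not whole, as arise when a read is shared between transcripts. Exons of Igf2 overlap the predicted gene Gm49394 on the same strand. The Igf2 level was 8738 CPM in b2 and 3021 CPM in p1, so p2 was the lowest of these clusters. The difference was present at each stage, with 1671 and 349 CPM at E9.0, 2019 and 300.5 CPM at E9.5 and 4230 and 531.5 CPM at E10.5. H19, the noncoding RNA expressed from the same imprinted region, had 514 counts in 22 b3 cells and 78 counts in 13 p2 cells, a log2 ratio of -2.55. Mest, another imprinted gene, had 117 counts in 13 b3 cells and 15 counts in 4 p2 cells, a log2 ratio of -2.76. Igf1, the related growth factor of the liver and stroma, had 113 counts in 14 b3 cells and 9 counts in 4 p2 cells.

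The other genes with the largest differences downward had varied roles. Crip2, a LIM-domain protein of vessels, ranged from 0 to 913.7 CPM over b3 cells (median 123.4), was counted in 15 of them and gave 2 counts in 1 p2 cell. Its summed level was 231.5 CPM (199.7 to 266.8) in b3 and 2.73 CPM (0.331 to 9.86) in p2, a log2 ratio of -6.09, and within runs the log2 ratio was -4.48, -6.02 and -6.06. Nrep had 175 counts in b3 and 3 in p2, a log2 ratio of -5.48, but 81.7% of its b3 counts came from 1 cell, and without that cell the log2 ratio was -3.21. Caskin2, a scaffold protein of endothelial cells, owed 45.5% of its b3 counts to 1 cell and had a log2 ratio of -3.26, or -2.46 without that cell. At E9.0, 12 of the 15 genes named for the size of their decrease were lower in p2, and the exceptions were Caskin2 and Fcgrt, with 0 CPM in b3 at this stage, and Nrep, with 5.17 CPM in b3 and 5.33 CPM in p2. Tpp1, a lysosomal peptidase, Limch1, an activator of non-muscle myosin, and Rcn3, a calcium-binding protein of the endoplasmic reticulum, had log2 ratios of -2.87, -2.86 and -2.76. All 15 genes named for the size of their decrease stayed at least 2-fold lower without their highest b3 cell, and all 15 were at least 2-fold lower within the Runx1 sort.

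**Figure D3:**
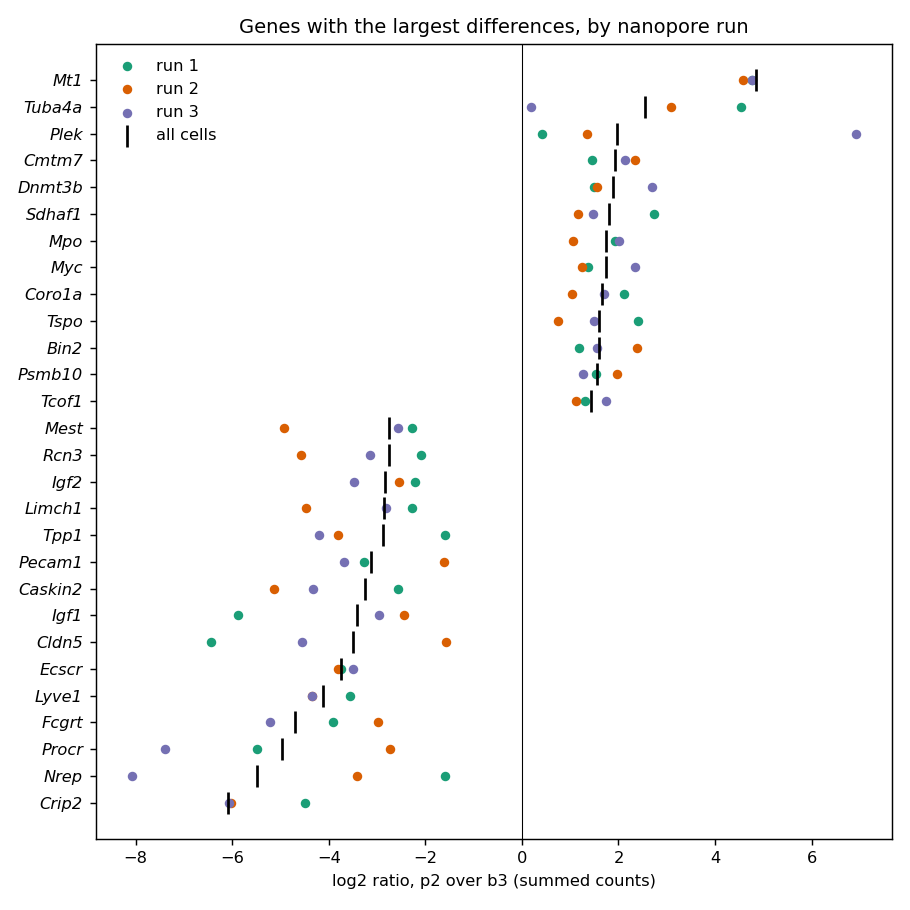
Log2 ratio of p2 over b3 for 28 genes with the largest differences among called genes with at least 100 counts, in all cells (black bars) and in each nanopore run (coloured points). All points of the 13 upper genes lie above 0 and all points of the 15 lower genes below 0, with runs far apart for Plek, Tuba4a, Cldn5 and Nrep.

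Hematopoietic genes were higher in p2 by a smaller margin, and several were already present in b3. Of 32 markers of blood cells, 15 had enough counts, 10 of them had a log2 ratio above 0, and 5 were called higher, against 3.45% of all genes. Their median log2 ratio was 0.47, against 0.052 over all genes, and it was 0.24, 0.74 and 0.40 in the 3 runs, and 0.16 over the 7 members with at least 200 counts. Summed over the list, b3 cells held 1439 to 5878 CPM (median 2636) and p2 cells 2705 to 5571 CPM (median 3760). Of 24 b3 cells, 14 lay below the lowest p2 cell, while 1 b3 cell exceeded every p2 cell. The medians in b2 and p1 were 1709 and 4668 CPM. At E9.0 every p2 cell (3408 to 4008 CPM) exceeded every b3 cell (1952 to 2895 CPM), and at E9.5 and E10.5 the cells overlapped.

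The called genes of this list act on the cytoskeleton and in signalling of blood cells. Coro1a, an actin regulator of leukocytes, was counted in 19 of 24 b3 cells (0 to 1195 CPM, median 130) and in all 20 p2 cells (highest 1124 CPM, median 679.4). Its summed level was 209.5 CPM (179.4 to 243.3) in b3 and 666.3 CPM (608.5 to 728.1) in p2, a log2 ratio of 1.67. Among Gfi1-sorted cells, of which p2 had 2, Coro1a stood at 307.3 CPM in b3 and 334.9 CPM in p2, and among Runx1-sorted cells at 143.2 and 705.6 CPM. Plek, a protein kinase C substrate of platelets and leukocytes, had 25 counts in 4 b3 cells and 89 counts in 14 p2 cells, with within-run log2 ratios of 0.42, 1.35 and 6.92. Cd48, a leukocyte adhesion receptor, had 12 counts in 3 b3 cells and 76 counts in 7 p2 cells. The Lyn substrate gene Hcls1 and the phosphatase gene Ptpn7 had log2 ratios of 1.07 and 1.18, and Hcls1 dropped to 0.93 without its highest p2 cell. Tyrobp, an adaptor of myeloid receptors, had 11 counts in b3 and 75 in p2 but was lower in p2 in run 2 and was not called. Arhgdib, an inhibitor of small GTPases in leukocytes, gave 882 counts in each population, in every cell, at 1074 CPM in b3 and 1204 CPM in p2. Laptm5, a lysosomal protein of blood cells, stood at 177.9 and 162.5 CPM, and the stem cell factor receptor gene Kit at 71.9 and 51.9 CPM. Ptprc, which encodes CD45, had 0 and 4 counts and Itga2b, which encodes CD41, had 28 and 19 counts, in cells sorted as negative for both proteins.

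Among 26 transcription factors of blood, 12 had enough counts, 10 of these had a log2 ratio above 0, and 2 were called higher, against 3.45% of all genes. Nfe2, a regulator of platelet and globin genes, had 46 counts in 7 b3 cells and 107 counts in 16 p2 cells, a log2 ratio of 1.37, with 0 CPM in b2 and 60.9 CPM in p1. Myc reached 592.6 CPM in b3 cells (median 0) and 864.2 CPM in p2 cells (median 349), and was counted in 10 of 24 and 19 of 20 cells. Its summed level was 114.5 CPM (92.5 to 140.1) in b3 and 385 CPM (341.4 to 432.7) in p2, a log2 ratio of 1.74. Gfi1b, the repressor of endothelial genes in EHT, had 71 counts in 10 b3 cells and 130 counts in 16 p2 cells, a log2 ratio of 1.03, but was not called because run 3 gave -0.14. Gfi1, its paralog and the gene of the GFP reporter, had 19 counts in 6 b3 cells and 0 counts in p2, too few for a ratio. Runx1 had 16 counts in b3 and 14 in p2. Mycn, Lyl1, Spi1 and Myb were not called, with 166.9 and 189.8 CPM for Mycn and 152.3 and 217.1 CPM for Lyl1. The 8-gene signature that the study built for HE had 2 members with enough counts, of which neither was called.

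Of 23 megakaryocyte genes, 5 had enough counts, 2 were called higher and 1 lower, against 3.45% and 5.28% of all genes. Treml1, a receptor of platelet granules, had 21 counts in 4 b3 cells and 53 counts in 12 p2 cells. Clec1b, the podoplanin receptor of platelets, went the other way, at 430 CPM in b3 and 143.4 CPM in p2, a log2 ratio of -1.58, and had counts in 23 of 24 and 12 of 20 cells. Its exons overlap those of Clec9a on the same strand. Of 27 myeloid and mast cell genes, 8 had enough counts and only Mpo, the peroxidase of neutrophil granules, was called. Mpo reached 564.2 CPM in b3 cells (median 16.2) and 605.3 CPM in p2 cells (median 192.4), with counts in 11 of 24 and 17 of 20 cells and summed levels of 76.7 and 259.4 CPM. It stood at 4.7 CPM in b2 and 205.6 CPM in p1. Prtn3, a serine protease of the same granules, had 19 and 41 counts and was not called, since run 1 gave a log2 ratio of -0.28.

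Erythroid genes did not separate the populations at this depth. Of 28 erythroid genes, 3 had enough counts (Alad, Urod and Car2) and none was called, with log2 ratios of -0.07, 0.02 and 0.35. Gata1 had 0 counts in b3 and 9 in p2, the latter in 2 cells of run 1. Smim1, a red-cell membrane protein gene, had 5 and 27, and Klf1 and Alas2 had 0 in both populations. Summed globin counts amounted to 3.65 CPM in b3 and 4.1 CPM in p2. Of 16 lymphoid genes, only Cd79b had enough counts and it was not called. No gene of the mesenchyme, visceral endoderm or macrophage lists had enough counts. These 3 lists summed to 20.7, 10.96 and 0 CPM in b3 and to 27.3, 8.19 and 2.73 CPM in p2.

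The lists in this paragraph were taken from the study, which chose the fate lists on these clusters, so they are not independent evidence of their direction. Of the 90 genes of the EMP list, 37 had enough counts, 27 of these had a log2 ratio above 0, 9 were called higher and H19 was called lower, with a median log2 ratio of 0.35. Over all genes, to be read beside each count of this paragraph, 3.45% were called higher and 5.28% lower. Among the 9 were Dnmt3b, Mpo, Mt1, Nfe2, Treml1, Tspan32, Tuba4a and Unc119. Of the 67 genes of the list for lympho-myeloid progenitors (LMP), 7 had enough counts, 4 were called lower and Tsc22d1 was called higher, with a median of -1.17. Of 15 genes kept for LMP fate, 8 had enough counts, and Igf2, H19, Itm2b and Gimap6 were called lower. Slc35d3, a vesicular transporter of platelet dense granules, was the only 1 of the 8 above 0, with a log2 ratio of 3.52. It had 6 counts in 1 b3 cell and 66 counts in 12 p2 cells, and stood at 15.2 CPM in p1 and 90.1 CPM in p2. The paper's text gives fewer LMP-fate genes than the 15 used here, so whether Slc35d3 belongs to them is uncertain. All 5 genes with enough counts among 8 kept for EMP fate had a log2 ratio above 0, and Odc1 was called. Summed over the LMP-fate genes, 18 of 24 b3 cells lay above the highest p2 cell. Igf2 alone gave 2787 of the 5434 CPM of this sum in b3.

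**Figure D4:**
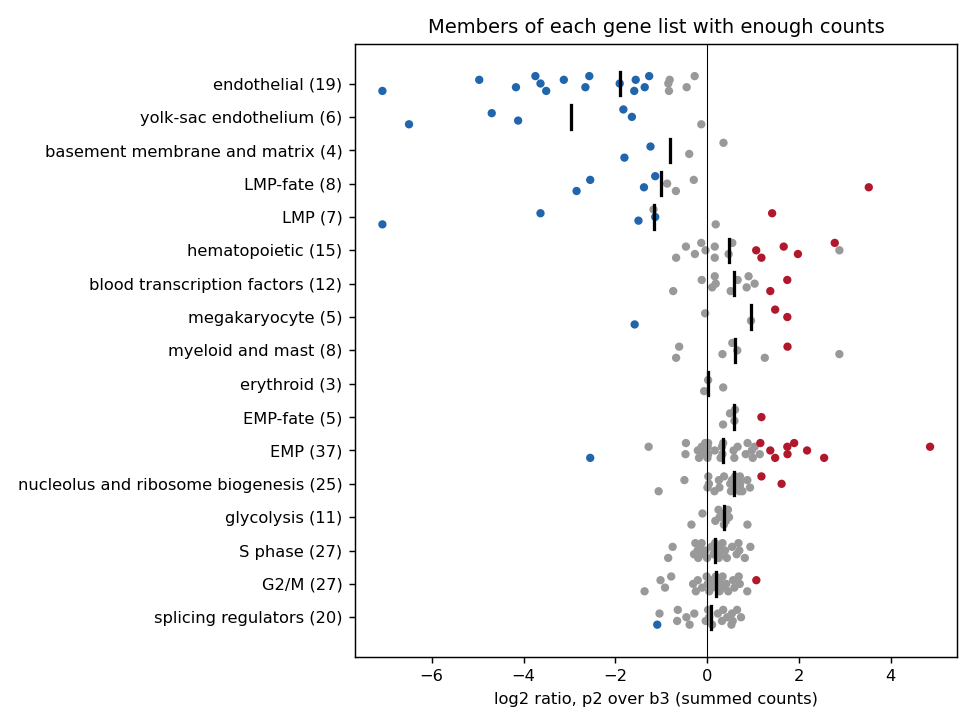
Log2 ratio of p2 over b3 for each member with enough counts (number in brackets) of 17 gene lists, with black bars at the list medians, red points called higher and blue points called lower. Medians run from -2.97 for YS endothelium and -1.91 for endothelial genes to 0.95 for the 5 megakaryocyte genes. The count limit was on the sum of both populations, so some members passed it through 1 population alone.

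Mt1, a metallothionein that binds zinc and copper, was the gene with the largest difference upward. Over b3 cells Mt1 ranged from 0 to 70.7 CPM with counts in 2 of 24, and over p2 cells from 0 to 676.2 CPM (median 179.6) with counts in 17 of 20. Summed over cells, it stood at 8.53 CPM (3.43 to 17.6) in b3 and 263.5 CPM (227.6 to 303.4) in p2, a log2 ratio of 4.85, and 4.77, 4.58 and 4.76 in the 3 runs. It stood at 14.1 CPM in b2 and 127.9 CPM in p1. The p2 level was 149.2 CPM at E9.0, 226.8 CPM at E9.5 and 402.3 CPM at E10.5, where b3 held at most 9.62 CPM. Its neighbour Mt2 had 0 counts in b3 and 3 in p2.

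Other genes with the largest differences upward spanned membrane traffic, chromatin and metabolism. Cmtm7, a tetraspan membrane protein of blood cells, was counted in 20 of 24 b3 cells (median 139.2 CPM, highest 414.8) and in all 20 p2 cells (median 449.6 CPM, highest 1265). Over summed counts Cmtm7 stood at 147.4 CPM (122.3 to 176.1) in b3 and 559.8 CPM (506.9 to 616.7) in p2, a log2 ratio of 1.92, and 1.44, 2.34 and 2.14 in the runs. Bin2, a membrane-curving protein of blood cells, stood at 103.5 and 314 CPM, and Tspo, a mitochondrial cholesterol-binding protein, at 82.8 and 252.6 CPM. Dnmt3b, a de novo DNA methyltransferase, had 28 counts in 8 b3 cells and 94 counts in 15 p2 cells. Psmb10, a subunit of the immunoproteasome, had 30 and 79 counts. Sdhaf1, an assembly factor of mitochondrial complex II, had 26 and 82 counts. Tcof1, the treacle protein of ribosomal DNA transcription, had 49 and 118 counts. Tuba4a, an alpha-tubulin, had a log2 ratio of 2.55 in all cells but 0.19 in run 3, and 68.6% of its counts came from estimates that were not whole, as arise when a read is shared between transcripts. All 14 genes that met the rule for the size of their increase stayed at least 2-fold higher without their highest p2 cell. Among cells of E9.0 alone, 13 of the 14 were higher in p2 and 11 were at least 2-fold higher. Exons of some genes overlap a gene on the other strand in the GENCODE M21 annotation. Among genes named by size of difference these were Cmtm7, Coro1a, Mpo, Plek, Sdhaf1, Tspo, Tuba4a, Caskin2, Ecscr, Igf2, Mest and Rcn3. The same held for other genes described here, among them Eng, Selenop, Tspan32, Rrp9, Ptbp3 and Prdx5. It also held for the transcripts Aup1-214, Ilk-204, Eftud2-206 and Tpm4-202 described below. Reads that lie wholly within the overlap of such a pair could not be told apart by strand here. The use of strand in counting is not given in the sources used here.

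Of 29 genes of the nucleolus and ribosome biogenesis, 25 had enough counts, 23 of these had a log2 ratio above 0, and 2, Rrp9 and the polyamine enzyme gene Odc1, were called higher, against 3.45% of all genes, with a median of 0.59, and of 0.61, 0.23 and 0.48 in the 3 runs. Rrp9, a protein of the U3 small nucleolar particle, had 15 counts in 7 b3 cells and 42 counts in 16 p2 cells. Of Odc1 counts, 92.7% were in estimates that were not whole. Ncl, the abundant nucleolar protein nucleolin, stood at 982.2 CPM in b3 and 1496 CPM in p2, and Srm, the spermidine synthase, at 759.5 and 1163 CPM, both short of 2-fold. Of 11 glycolysis genes with enough counts, 9 had a log2 ratio above 0 and none was called, with a median of 0.36. Cell cycle genes differed less: the medians were 0.17 over 27 genes of S phase and 0.19 over 27 genes of G2/M. Only Cks1b, a cyclin-dependent kinase subunit, was called, higher in p2, against 3.45% of all genes. Of 20 splicing regulators with enough counts, only Ptbp3 was called, lower in p2, against 5.28% of all genes, with 96 counts in b3 and 40 in p2.

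Isoform use was compared in 1471 genes with at least 2 transcripts and at least 50 counts in each population. The fraction of a gene's counts given by a transcript differed by more than 0.1 in 340 genes (23.1%), and by more than 0.2 in 53. In 143 of the 1232 genes with at least 10 counts per population and run (11.6%), the difference of that transcript also had the same sign in each run. When every gene was thinned to 50 counts on each side, 34.2% of genes passed 0.1 between p2 and b3 over all runs. The same share was 40.0% to 43.5% between runs of b3 cells and 33.7% to 38.3% between runs of p2 cells. Within single runs, p2 against b3 gave 36.2% to 39.0%. These shares lay within the range seen between sets of cells of 1 population, so the transcripts below are described with their values by run.

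The transcripts that differed were of all annotated classes. Among the 143 genes, the transcript was annotated protein-coding in 100, with 46 higher and 54 lower in p2, subject to nonsense-mediated decay in 18 (8 higher and 10 lower) and a retained intron in 17 (8 higher and 9 lower). Over all counts, protein-coding transcripts made up 49.1% in b3 and 48.6% in p2, retained introns 5.395% and 5.36%, decay transcripts 4.04% and 3.98%, and processed pseudogenes 26.3% and 27.1%. Of 42 genes called for their level that could be examined for isoforms, 7 were among the 143 (16.7% of the former, 4.9% of the latter). The share over the 1232 genes was 11.6%. The 7 genes were Cmtm7, Emp3, Mpo, Myc, Rabac1, Ramp2 and Vim.

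Ramp2, the partner of Calcrl in the adrenomedullin receptor, had the largest isoform difference. Its transcript Ramp2-203, annotated as a decay substrate, gave a fraction of 0.11 of Ramp2 counts in b3 (95% binomial interval 0.084 to 0.13) and 0.70 in p2 (0.60 to 0.78), with 0.11, 0.081 and 0.12 in the runs of b3 and 0.85, 0.29 and 0.89 in those of p2. The level of Ramp2-203 itself was similar, at 75.3 counts (91.8 CPM) in b3 and 74.0 counts (101.1 CPM) in p2. The remaining Ramp2 transcripts had 632 counts in all 24 b3 cells and 32 counts in 4 p2 cells, a log2 ratio of -4.12, compared with -2.57 for the gene as a whole. In GENCODE M21, Ramp2-203 has 8 exons over chr11:101246391-101259546 (GRCm38, plus strand) and runs into Vps25, the next gene on the strand, which encodes a subunit of the ESCRT-II sorting complex. Of its 1478 bases, 1103 (74.6%) lie in exons of Vps25, and 4 of its exons equal coding exons of Vps25. One of these, chr11:101254943-101254996, is shown because reads that hold it and no Ramp2 sequence match both genes.
Ramp2-203 and Vps25 shared exon: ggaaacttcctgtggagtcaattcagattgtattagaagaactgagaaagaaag
Vps25 was at 145.8 CPM in b3 and 144.7 CPM in p2, and Vps25 with Ramp2-203 at 237.5 and 245.8 CPM.

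**Figure D5:**
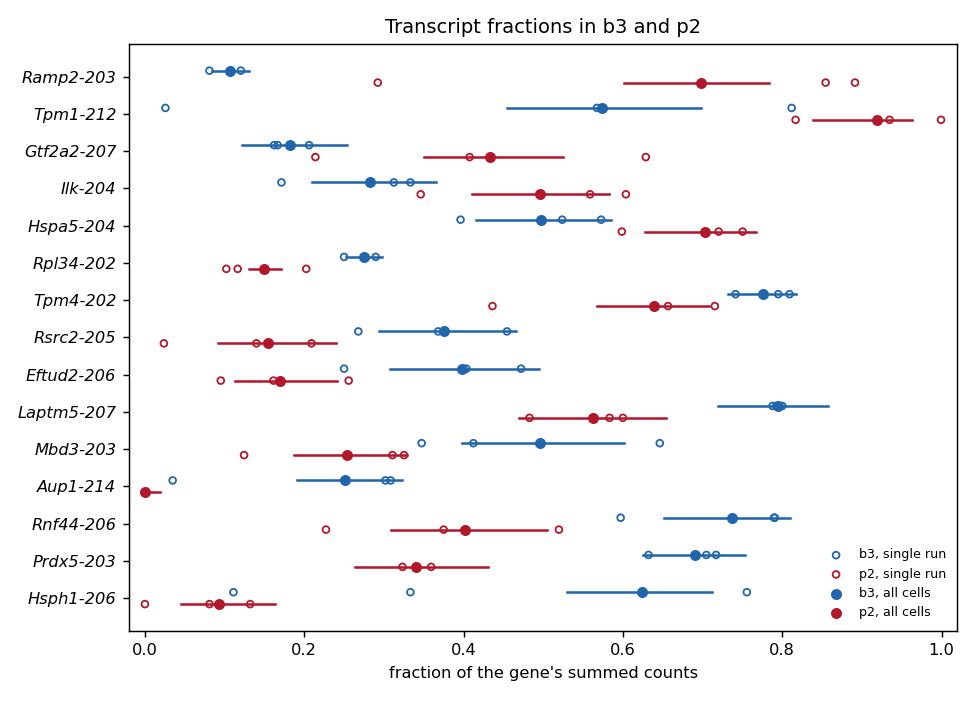
Fraction of the gene's summed counts given by 15 transcripts in b3 (blue) and p2 (red). Filled points are all cells, bars 95% exact binomial intervals and open circles the 3 runs. Ramp2-203 moves from 0.11 to 0.70 and Prdx5-203 from 0.69 to 0.34, and runs lie far apart for Tpm1-212 and Hsph1-206.

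Other genes differed in transcript use while the gene itself was not called. In Prdx5, a peroxiredoxin of mitochondria and peroxisomes, runs differed little, as Prdx5-203 made up 0.63, 0.70 and 0.72 of counts in the b3 runs and 0.34, 0.36 and 0.32 in the p2 runs. Over all cells this was 145.7 of 211 counts in b3 and 45.6 of 134 in p2, while Prdx5-201 went from 0.18 to 0.46. These transcripts begin with different first exons in M21, with an end at chr19:6908301 for Prdx5-203 and chr19:6910106 for Prdx5-201 on the minus strand. Laptm5-207 went from 0.79 (0.72 to 0.86) in b3 to 0.56 (0.47 to 0.65) in p2, with b3 runs between 0.79 and 0.80 and p2 runs between 0.48 and 0.60. Rnf44, a ubiquitin ligase gene, used Rnf44-206 for 0.74 of counts in b3 and 0.40 in p2 and Rnf44-209 for 0.12 and 0.43, from first exons that do not overlap. Hspa5-204, a short decay transcript of the chaperone gene for BiP, made up 0.50 in b3 and 0.70 in p2, and Ilk-204, of the integrin-linked kinase gene, 0.28 and 0.50. Eftud2-206 and Rsrc2-205, decay transcripts of a U5 spliceosome protein gene and a splicing-related gene, went from 0.40 to 0.17 and from 0.38 to 0.15. Mbd3-203, of a methyl-CpG-binding protein gene, went from 0.50 to 0.25, and Gtf2a2-207, a retained-intron form of a general transcription factor gene, from 0.18 to 0.43.

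Some of these values rested on few cells. Hsph1-206, of a heat-shock protein gene, went from 0.62 to 0.093, but 90 of the 117 Hsph1 counts of b3 came from run 1 and run 2 gave 9 counts, so the gene was not among the 143. Aup1-214, a retained-intron form of a lipid droplet protein gene, gave 44.7 of 178 counts in 7 b3 cells and rounded to 0 counts in p2. The exact binomial interval for 0 of 187 counts reaches a fraction of 0.020 in p2.

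Of the 38 genes examined for isoforms known in blood or endothelium, 11 had enough counts in both populations, 5 had a difference over 0.1, against 23.1% of all genes, and 3 (Tpm1, Tpm4 and Rpl34) had it in the same direction in each run, against 11.6%. Runx1, Gata1, Kit and Ptprc were among the genes with too few counts. Tpm1 encodes the actin-binding tropomyosin, whose transcripts choose between mutually exclusive exons. Tpm1-212 made up 39.6 of 69 counts in b3, a fraction of 0.57 (0.45 to 0.70), and 86.4 of 94 in p2, a fraction of 0.92 (0.84 to 0.96), while Tpm1-211 went from 0.24 to 0.034. The runs of b3 lay far apart, at 0.81, 0.026 and 0.57 for Tpm1-212 with 24, 10 and 35 counts of the gene, and those of p2 at 0.93, 1.00 and 0.82. The alternative exons, chr9:67032466-67032541 in Tpm1-212 and chr9:67031951-67032026 in Tpm1-211 (GRCm38, minus strand), are each 76 bases long and differ at the 33 bases in capitals, which lets a long read tell them apart.
Tpm1-212: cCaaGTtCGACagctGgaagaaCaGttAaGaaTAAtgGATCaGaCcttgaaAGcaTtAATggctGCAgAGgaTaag
Tpm1-211: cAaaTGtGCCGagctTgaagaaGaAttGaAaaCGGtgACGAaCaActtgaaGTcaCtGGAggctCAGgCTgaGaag
Tpm4-202, a noncoding form of a second tropomyosin gene, went from 0.78 to 0.64, and Rpl34-202, of a ribosomal protein gene, from 0.27 (0.25 to 0.30) to 0.15 (0.13 to 0.17), with b3 runs between 0.25 and 0.29 and p2 runs between 0.10 and 0.20. Of Rpl34 counts, 100% were in estimates that were not whole, and the intervals do not cover how reads were divided. Cd47-206 and Ythdf2-201 passed 0.1 but had the opposite sign in run 2.

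Gfi1b and Pkm stayed under the limit of 0.1. Gfi1b-204 and Gfi1b-201 differ by 99 coding bases at chr2:28611585-28611683 (GRCm38, minus strand), which Gfi1b-201 lacks and which are shown because they separate the long from the short form of this repressor.
Gfi1b-204 only: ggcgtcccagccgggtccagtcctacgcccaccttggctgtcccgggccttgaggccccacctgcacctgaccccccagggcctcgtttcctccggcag
The short form Gfi1b-201 gave 9.94 of 71 counts in b3, a fraction of 0.14 (0.070 to 0.24), and 31.1 of 130 in p2, a fraction of 0.24 (0.17 to 0.32). These intervals overlapped, and run 2 held only 5 Gfi1b counts in b3. Pkm, the pyruvate kinase of glycolysis, is spliced to an M2 form or an M1 form through exons of equal length. The M2 exon at chr9:59675568-59675734 and the M1 exon at chr9:59675029-59675195 (GRCm38, plus strand) hold 167 bases each and differ at the 64 bases in capitals.
Pkm M2 exon: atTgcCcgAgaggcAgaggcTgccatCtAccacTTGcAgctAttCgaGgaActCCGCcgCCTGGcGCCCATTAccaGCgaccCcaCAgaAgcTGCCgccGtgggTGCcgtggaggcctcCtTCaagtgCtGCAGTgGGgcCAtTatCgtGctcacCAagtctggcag
Pkm M1 exon: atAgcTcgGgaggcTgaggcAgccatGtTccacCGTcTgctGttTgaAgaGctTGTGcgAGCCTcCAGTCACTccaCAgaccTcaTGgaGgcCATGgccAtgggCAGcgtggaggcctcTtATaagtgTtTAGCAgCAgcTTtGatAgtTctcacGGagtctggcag
Of Pkm counts, 100% were in estimates that were not whole, and the intervals do not cover how reads were divided. The main M2 transcript made up 0.70 of counts in b3 (0.66 to 0.74) and 0.71 in p2 (0.67 to 0.74). The M1 transcript made up 0.086 (0.062 to 0.11) and 0.14 (0.11 to 0.17), in 9 of 24 b3 cells and 8 of 20 p2 cells. Its runs ranged from 0.022 to 0.20 in b3 and from 0.055 to 0.23 in p2. Tpm3, Myl6, Pfn1 and Lyl1 also stayed under 0.1.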

How the data were processed

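Single-cell cDNA libraries of the YS and other sites had been sequenced on a nanopore instrument by the authors, who aligned the reads to GENCODE transcripts and quantified each transcript with NanoCount. The submitters' processing notes name minimap2 2.26, R 4.3.0 and DESeq2 1.40.2. The deposited estimated counts per transcript were used for all values, and the deposited TPM, which equal these counts scaled to a common total per cell, served as an alternative. Of the counts, 59.8% were in estimates that were not whole, as reads shared between transcripts are divided. The study's supplement lists GRCm39 and mm10 references without saying which was used for the nanopore reads, and the use of strand in counting is not given in the sources used here. Exons and sequences come from GENCODE M21 (GRCm38), with transcripts matched by identifier.

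Cells with at least 17595 counts, 1 scaled MAD below the median of all 221 cells, were kept. Counts were summed per gene and population, 0.5 counts were added, and the log2 ratio of CPM was taken. Genes needed 50 counts over both populations and were called at a log2 ratio of at least 1 in size with the same sign in each of 3 runs. A list member could thus pass the count limit through 1 population alone, which affects list shares and medians. Isoform fractions needed 50 counts of the gene in each population and were called past 0.1. Since each population counted as 1 sample, no test was run; intervals are exact Poisson or binomial intervals at 95% and cover counting error only. The text names the members of 27 gene lists, the 15 genes furthest in each direction among called genes with at least 100 counts, and the 12 genes with the largest isoform differences of the same sign in each run, leaving out predicted and ribosomal protein genes. One of the 15 genes higher in p2 is an unnamed lncRNA, and some genes that met the rule are not reported here. Members, lists and rules were chosen with earlier results of these data known. Fcrls and Vpreb1 of the lists were not matched. Promoter sequences were found for too few of the called genes, so the motif comparison was void. Python 3.11.15 with numpy 2.4.6, pandas 2.3.3, scipy 1.17.1 and matplotlib 3.10.9 was used, and R 4.3.3 with edgeR 4.0.16 for TMM factors alone. The calling was tested on simulated data.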

Additional observations from a re-analysis of the deposited data

How the results depend on the processing

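No result changed direction under the alternatives run, which did not include cells of E9.0 alone. Of 493 values of named genes under these alternatives, 455 stayed within the spread between runs, and of 154 values of named transcripts, 142 did. Some alternatives changed only a count limit or the limit on the fraction difference. These cannot move a gene's ratio or a transcript's fraction, so their values stayed by design. No paired analysis was possible because no embryo is named and no test was made.

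The count of genes higher in p2 (142) was 68 with each cell thinned to the same total, 19 among genes with at least 200 counts and 1464 without a count limit. The count of genes lower in p2 (217) was 94, 35 and 1053 under the same settings, 96 with cells of E9.0 and E9.5 alone, 137 with E10.5 alone and 93 within the plate that held the most cells. The endothelial median (-1.91) was -0.83 at 200 counts, -2.24 without a count limit, -2.15 with the library-size limit set on the log scale, -1.25 with E9.0 and E9.5, -3.18 with E10.5 and -1.40 within that plate. The hematopoietic median (0.47) was 0.16 at 200 counts. The count limit was applied anew in each setting, so list medians of different settings can cover different genes. Leaving out each run in turn gave 135 to 183 genes higher, 150 to 209 lower, an endothelial median of -2.02 to -1.41 (the latter without run 3) and a hematopoietic median of 0.33 to 0.69.

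The 340 isoform differences numbered 170 with thinned cells, 530 with each gene thinned to 50 counts, 28 at 200 counts, 176 with protein-coding transcripts alone, 178 at E10.5, 176 within the plate and 53 past 0.2. The 143 of the same sign in each run numbered 87 with thinned cells, 22 at 200 counts, 67 with protein-coding transcripts, 90 in the Runx1 sort, 55 at E10.5, 64 within the plate and 26 past 0.2. Without 1 run these numbered 228 to 311 and 187 to 250 (the latter without run 2, with 2 signs to match in place of 3). Fewer cells or counts enter most of these settings; otherwise the cause was not tested. An alternative chosen after seeing the data, without the p2 cell highest in endothelial genes, gave 149 genes higher and 218 lower, medians of -2.03 and 0.41, and 331 and 126 isoform differences.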

Other observations

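Other imprinted genes were examined after the values of Igf2, H19 and Mest had been seen. Gnas, which encodes the stimulatory G protein alpha subunit, stood at 573.8 CPM in b3 and 311.3 CPM in p2, a log2 ratio of -0.88, with -0.88, -0.75 and -0.95 in the 3 runs, and was short of 2-fold. Grb10, an adaptor that inhibits insulin signalling, had 35 counts in b3 and 27 in p2, lower in p2 in runs 1 and 2 and higher in run 3. Cdkn1c, a cell cycle inhibitor, had 12 counts in 4 b3 cells and 1 count in p2, and Plagl1, a zinc finger factor, had 6 and 0 counts, all too few for a ratio. Dlk1 gave 13 and 12 counts.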
